A study of Homo sapiens with 14 samples.

Results

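The genes described here encode the machinery that loads, holds and fuses secretory vesicles, and they were chosen by symbol from the count table of 14 human neuroblastoma cell lines. The choice took every numbered synaptotagmin, synapsin, SV2 protein, vesicle-associated membrane protein, syntaxin, syntaxin-binding protein, RAB3 GTPase and complexin, together with SNAP25, SNAP91, SYP and SYNPR. It found 62 genes of 20049 in the table. By role these were 16 synaptotagmins, 13 proteins of the vesicle membrane and of vesicle tethering, 5 SNAREs of neuronal exocytosis, 10 proteins that regulate SNAREs and 18 other SNAREs. SYT8 and STX19 were not analysed here.

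Exocytosis is driven by SNARE proteins, which zip together across the gap between a vesicle and its target membrane. In neurons and neuroendocrine cells VAMP2 on the vesicle pairs with STX1A and SNAP25 on the plasma membrane, regulators such as the complexins hold and release this complex, and synaptotagmins trigger fusion when calcium enters. Neuroblastoma arises from sympathoadrenal precursors of the neural crest, whose normal descendants store noradrenaline in such vesicles, and cultured lines are known to vary between an adrenergic state, defined by factors such as PHOX2A, and a mesenchymal state.

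RNA of each line was sequenced as 1 library, and the series concerns telomere damage, immunogenicity and antibodies against PD-L1. The labels name no treatment and put no line in a class, and they do not say which line grew in RPMI and which in DMEM. In the order used in the plots they are SH-SY5Y, a subclone of SK-N-SH, and IMR5-75, a subclone of IMR32, followed by SK-N-FI, CLB-GA, SK-N-DZ, IMR32, Lan-6, NBL-S, LS, NGP, SK-N-BE(2)C, SK-N-AS, SK-N-SH and GI-ME-N. The parentage of the subclones comes from textbook knowledge, since the labels do not give it. As no line was sequenced more than once, differences between lines lack a check by replicates.

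Library totals lay between 35856642 counts in Lan-6 and 58644013 in LS. Levels are given as CPM, the counts of a gene relative to the scaled total of its library, and where a gene had 0 counts its true level may reach the equivalent of 3 counts, 0.0514 CPM in LS and 0.102 CPM in Lan-6. Lan-6 and GI-ME-N stood apart from the other libraries: over 6246 genes of stable level, transcript length and GC content accounted for 51% of the variance of Lan-6 around the mean of the lines, 16.1% in GI-ME-N and 13.5% in LS, against 0.336% to 7.51% in the other libraries. With the trend removed, the highest line changed for 7 of the 62 genes and the lowest for 9, and the changes that involve Lan-6, GI-ME-N or LS are given beside the gene, as are end values of a range that moved by over 1.5 times. Summed levels of 7 adrenergic factors were lowest in SK-N-SH (516 CPM) and highest in CLB-GA (2648 CPM). The factors did not move together in GI-ME-N. There PHOX2A, a defining factor of the sympathoadrenal lineage, was at 0.527 CPM, its lowest level. TBX2, another of the 7, had its highest level in GI-ME-N, at 494 CPM against a median of 181. Summed levels of 10 mesenchymal markers were 29770 CPM in GI-ME-N and 13030 in SK-N-SH, against 178.7 to 2048 in the other lines. Most of the sum in GI-ME-N came from FN1 (17720 CPM) and VIM (10610 CPM). TWIST1 was highest in SH-SY5Y (342 CPM), and each of the other mesenchymal markers in GI-ME-N or SK-N-SH. Summed levels of 8 fibroblast markers were highest in SK-N-SH (15100 CPM) and GI-ME-N (12360 CPM). All 6 Schwann cell markers together reached at most 19.3 CPM, with SOX10 under 1 CPM in every line. The summed leukocyte markers were at most 47.7 CPM except in SK-N-AS (487 CPM). Fewer cells of a kind and less RNA per cell cannot be told apart in such bulk libraries.

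Vesicle genes split by role into those present throughout and those that some lines lacked. At least 1 CPM was reached in every line by 32 of the 62 (51.6%), against 52.8% of all 20049 genes. This held for all 5 neuronal SNAREs and 14 of the 18 other SNAREs, but for 4 of 16 synaptotagmins, 5 of 13 genes of the vesicle membrane and tethering, and 4 of 10 SNARE regulators. CPLX4, a retinal complexin, and STX11, a syntaxin of immune cells, reached 1 CPM in no line. The highest level exceeded 100 times the lowest in 24 of the 62 genes, with the lowest taken as at least 0.0514 CPM, against 15.2% of all genes (3041). Among genes averaging 5 CPM or more, the median SD of log2 CPM over the 12 lines without the subclones was 1.16 for 51 vesicle genes and 0.74 for 12535 genes in all. It was 2.74 for the vesicle membrane and tethering genes (11), 2.47 for synaptotagmins (13), 1.20 for the regulators (7), 1.13 for the neuronal SNAREs (5) and 0.73 for the other SNAREs (15).

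**Figure D1:**
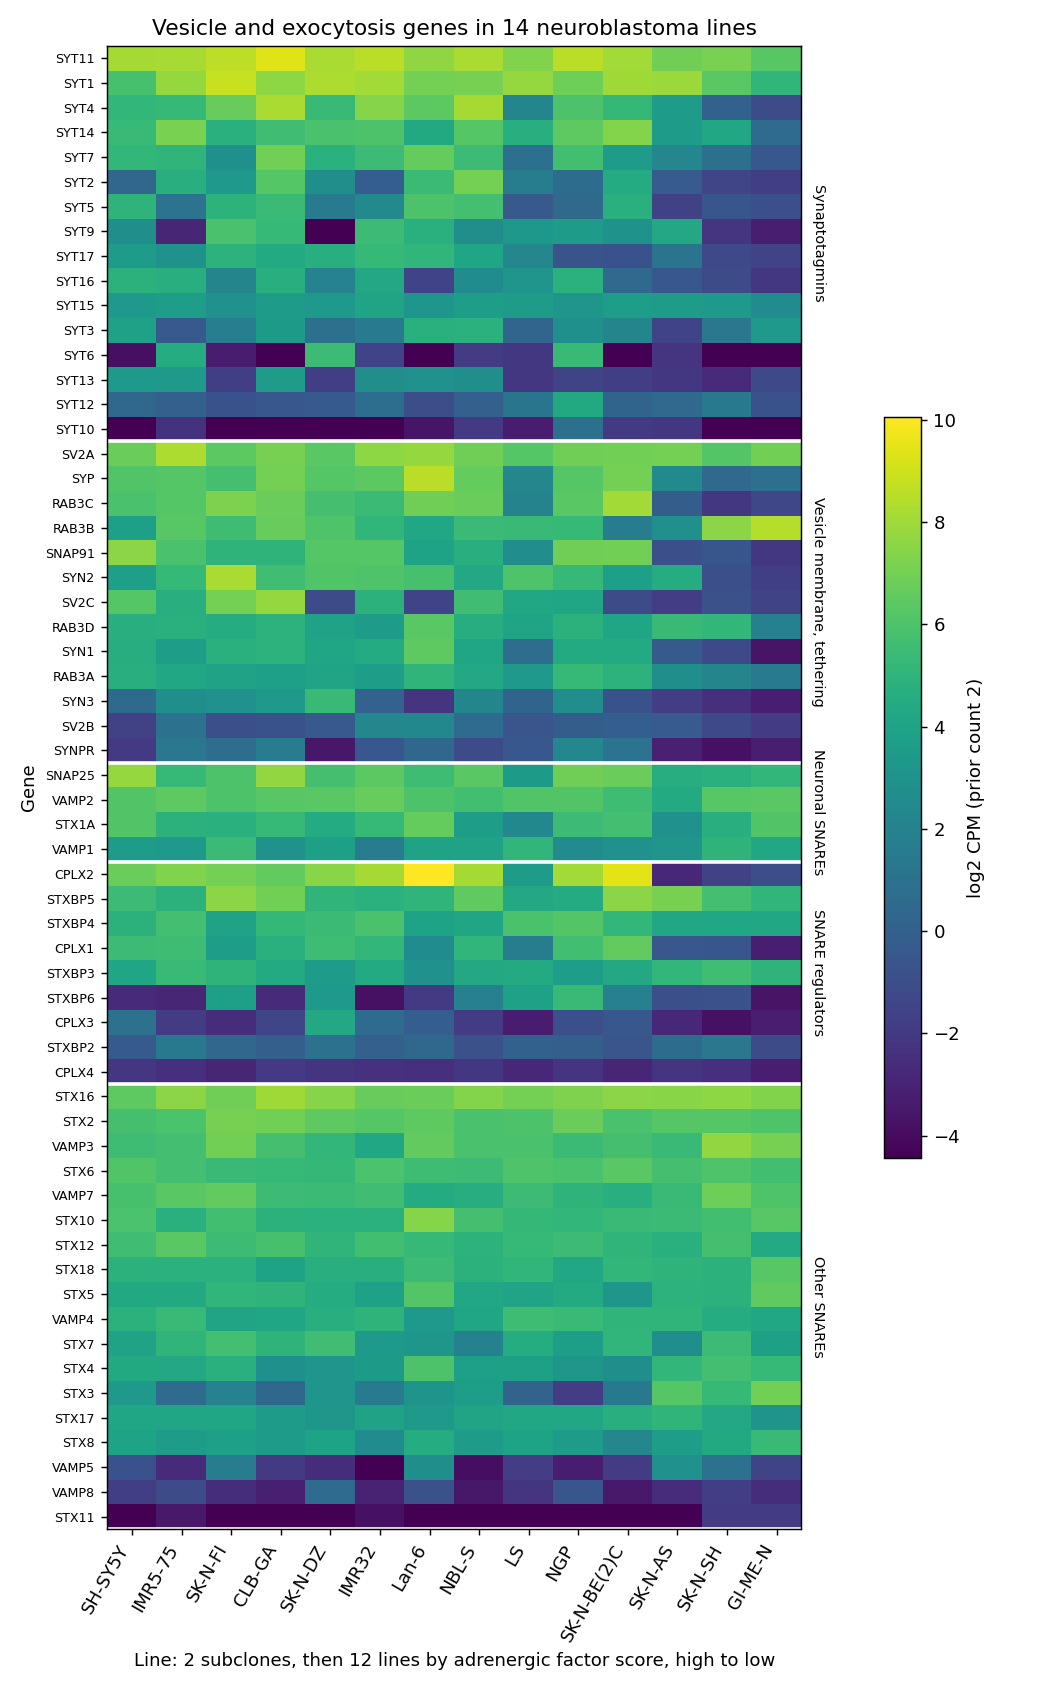
Colour gives log2 CPM (prior count of 2) of 60 of the vesicle genes (rows, by role and then by mean level) in each line (columns, the 2 subclones and then the other 12 lines by adrenergic factor score). Dark blocks in the columns of SK-N-SH and GI-ME-N fall mostly on synaptotagmins, vesicle membrane genes and complexins, while the other SNAREs are of similar colour across lines.

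The lines differed in how much of this repertoire they held. Of the 62 genes, SK-N-AS held 41 at 1 CPM or more, SK-N-SH 38 and GI-ME-N 34, against 49 to 53 in the other 11 lines. Of the 16 synaptotagmins SK-N-AS held 9 at this level, SK-N-SH 7 and GI-ME-N 5, against 12 to 14 elsewhere. Of the 13 vesicle membrane and tethering genes, SK-N-AS held 6, SK-N-SH 5 and GI-ME-N 5, against 10 to 13 elsewhere. The other SNAREs showed no such gap, with 14 to 16 of 18 in every line. How many of all genes reached 1 CPM was not counted line by line, so these counts lack that comparison. GI-ME-N held the lowest level of the 14 lines for 19 of 51 vesicle genes averaging 5 CPM or more (37.3%; 20 with its trend removed), while it was lowest for 12.5% of all 12535 such genes. Lan-6 was lowest for 3 of the 51 (5.88%), against 20.8% of all genes. For 13 of the 51 (25.5%) the 4 lowest lines were GI-ME-N, SK-N-SH, SK-N-AS and LS, against 1.85% of all genes, a set of lines named after these values were seen. Among those 13 were CPLX1, CPLX2, RAB3A, RAB3C, SNAP25, SNAP91, SYN1, SYP, SYT4, SYT5, SYT7 and SYT11.

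The SNAREs of neuronal exocytosis were present in all 14 lines. VAMP2 (chr17:8159149-8163546, minus strand), the vesicle SNARE, had 101 CPM in IMR32, followed by IMR5-75 at 86.7, GI-ME-N at 80.5, SK-N-DZ at 80.3, SK-N-SH at 77.9, CLB-GA at 77.6, NGP at 68.9, SH-SY5Y at 68.7, LS at 68.3, Lan-6 at 64.7, SK-N-FI at 63.2, NBL-S at 50.8, SK-N-BE(2)C at 47.7 and SK-N-AS at 21.1. SK-N-AS was the lowest, and the other 13 lines lay between 47.7 and 101 CPM. SNAP25 (chr20:10218830-10307418, plus strand), the plasma membrane partner that gives several helices to the complex, had 214 CPM in SH-SY5Y, followed by CLB-GA at 206, NGP at 123, SK-N-BE(2)C at 106, IMR32 at 83.5, NBL-S at 81.0, SK-N-FI at 63.5, SK-N-DZ at 55.9, Lan-6 at 46.4, IMR5-75 at 39.1, GI-ME-N at 35.8, SK-N-SH at 27.2, SK-N-AS at 24.2 and LS at 11.02. Its lowest line was LS, and SK-N-AS, SK-N-SH and GI-ME-N came next above it. STX1A (chr7:73699206-73719672, minus strand), the syntaxin of the plasma membrane, had 99.4 CPM in Lan-6, followed by SH-SY5Y at 70.8, GI-ME-N at 68.7, SK-N-BE(2)C at 53.8, NGP at 44.6, IMR32 at 39.2, CLB-GA at 38.1, IMR5-75 at 29.6, SK-N-FI at 27.1, SK-N-SH at 26.5, SK-N-DZ at 22.0, NBL-S at 12.7, SK-N-AS at 7.27 and LS at 4.88. LS and SK-N-AS were lowest here too, whereas GI-ME-N was the third highest, and with the library trend removed Lan-6 was at 51.7 CPM and GI-ME-N at 47.8, which leaves SH-SY5Y (72.5 CPM) highest. VAMP1, a close relative of VAMP2, ran from 3.09 CPM (IMR32) to 43.4 CPM (SK-N-FI), median 12.8.

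Compared per kilobase of transcript, as a level that can be set against other genes, the share of VAMP2 in the sum of VAMP1, VAMP2 and the endosomal VAMP3 was 81.0% in IMR32 and 22.4% in SK-N-SH, where VAMP3 made up 59.6%. VAMP3 was the largest part also in GI-ME-N (53.5%), SK-N-AS (50.8%), Lan-6 (49.8%), SK-N-BE(2)C (46.2%), SK-N-FI (45.7%) and NBL-S (42.2%). Shares and sums per kilobase, here and below, were taken with the length and GC trend in place. In Lan-6 its removal moved VAMP3 from 94.8 to 115.5 CPM and VAMP2 from 64.7 to 45.6 CPM. Shares also depend on the transcript used, which for VAMP1 had 1.113 kilobases, against 3.449 for its longest.

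Among the SNARE regulators, the 2 main complexins were high in most lines and all but missing from SK-N-SH, SK-N-AS and GI-ME-N. CPLX1 (chr4:784957-826198, minus strand), a complexin that clamps and then promotes fusion, had 97.1 CPM in SK-N-BE(2)C, followed by NGP at 51.5, SK-N-DZ at 47.0, IMR5-75 at 46.7, SH-SY5Y at 44.7, IMR32 at 35.7, NBL-S at 34.1, CLB-GA at 26.8, SK-N-FI at 12.4, Lan-6 at 6.07, LS at 3.07, SK-N-AS at 0.661, SK-N-SH at 0.631 and GI-ME-N at 0.0620. The value in GI-ME-N rests on 2 counts, and SK-N-AS and SK-N-SH were also under 1 CPM. With the library trend removed CPLX1 was at 2.61 CPM in Lan-6, under the 3.93 of LS. CPLX2, its neuroendocrine relative, ran from 0.0944 CPM (SK-N-AS) to 1065 CPM (Lan-6), median 143. It was under 1 CPM in GI-ME-N (0.465), SK-N-SH (0.275) and SK-N-AS, while Lan-6 still had 804 CPM with its trend removed. Per kilobase, CPLX2 was 50.8% to 98.5% of the complexins in every line but SK-N-SH (12.8%) and SK-N-AS (4.17%). The family as a whole was almost absent from GI-ME-N, SK-N-SH and SK-N-AS, at 0.182, 0.427 and 0.451 CPM per kilobase in sum, and the share of 50.8% in GI-ME-N rests on few counts.

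CPLX3, another retinal complexin, reached 20.0 CPM in SK-N-DZ and at most 1.97 CPM elsewhere. STXBP5 (tomosyn), which blocks SNARE assembly, ran from 19.4 CPM (LS) to 186 CPM (SK-N-BE(2)C), median 40.1, and STXBP6 (amisyn) from 0.0249 CPM (IMR32) to 41.2 CPM (NGP), median 0.509. STXBP3 and STXBP2, which act mainly outside neurons, were flatter. STXBP3 ran from 7.42 CPM (Lan-6; 11.8 with the trend removed, against 11.2 in SK-N-DZ, then the lowest) to 49.5 CPM (SK-N-SH), median 21.2, and STXBP2 from 0.434 CPM (GI-ME-N) to 2.66 CPM (IMR5-75), median 0.984. STXBP4, first described in the traffic of glucose transporters, ran from 15.1 CPM (SK-N-FI) to 72.1 CPM (NGP), median 32.1.

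The synaptotagmins ranged from genes that every line held to genes that few lines held. SYT1 (chr12:78863993-79452008, plus strand), the calcium sensor of fast release, had 467 CPM in SK-N-FI, followed by SK-N-DZ at 306, IMR32 at 264, SK-N-BE(2)C at 250.4, SK-N-AS at 235, IMR5-75 at 215, LS at 214, CLB-GA at 192, NBL-S at 138, Lan-6 at 132, NGP at 115, SK-N-SH at 83.0, SH-SY5Y at 58.1 and GI-ME-N at 33.8. No line lacked it, and GI-ME-N, SH-SY5Y and SK-N-SH were lowest. SYT11 (chr1:155859509-155885199, plus strand), a family member that does not bind calcium and acts in membrane retrieval, had 645 CPM in CLB-GA, followed by SK-N-FI at 394, NGP at 378, IMR32 at 375, NBL-S at 302, SK-N-DZ at 295, IMR5-75 at 289, SH-SY5Y at 280.2, SK-N-BE(2)C at 264, Lan-6 at 204, LS at 159, SK-N-SH at 144, SK-N-AS at 119.7 and GI-ME-N at 77.2. It was the synaptotagmin with the highest mean, and again GI-ME-N was lowest. SYT4 (chr18:43267878-43277650, minus strand), which sits on dense-core vesicles, had 302 CPM in CLB-GA, followed by NBL-S at 279.5, IMR32 at 174, SK-N-FI at 103, Lan-6 at 83.3, NGP at 65.5, SK-N-DZ at 39.6, IMR5-75 at 38.9, SK-N-BE(2)C at 37.0, SH-SY5Y at 35.8, SK-N-AS at 11.6, LS at 4.34, SK-N-SH at 0.988 and GI-ME-N at 0.434. Its top lines were CLB-GA and NBL-S, and it was under 1 CPM in SK-N-SH and GI-ME-N. SYT17 (chr16:19167971-19268334, plus strand), a synaptotagmin without a transmembrane segment, had 38.2 CPM in IMR32, followed by Lan-6 at 34.5, SK-N-FI at 31.0, SK-N-DZ at 24.9, CLB-GA at 21.5, NBL-S at 16.6, SH-SY5Y at 11.8, IMR5-75 at 7.71, LS at 4.87, SK-N-AS at 2.12, NGP at 0.592, SK-N-BE(2)C at 0.524, SK-N-SH at 0.384 and GI-ME-N at 0.310. In 4 lines it stayed under 1 CPM, namely NGP, SK-N-BE(2)C, SK-N-SH and GI-ME-N.

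SYT7, a slow high-affinity calcium sensor, ran from 0.682 CPM (GI-ME-N) to 128 CPM (CLB-GA), median 30.4. SYT2, the fast sensor that takes the place of SYT1 at some synapses, ran from 0.248 CPM (GI-ME-N) to 131 CPM (NBL-S), median 4.79, with 75.9 CPM in CLB-GA. SYT5 ran from 0.283 CPM (SK-N-AS) to 65.2 CPM (Lan-6; 49.3 with the trend removed, under the 56.3 of NBL-S), median 4.18, and SYT9, a further sensor of dense-core release, from 0 CPM (SK-N-DZ) to 59.2 CPM (SK-N-FI), median 8.82. The calcium-independent SYT14 and SYT16 ran from 1.49 CPM (GI-ME-N) to 166 CPM (SK-N-BE(2)C), median 44.8, and from 0.186 CPM (GI-ME-N) to 28.8 CPM (SH-SY5Y), median 5.30. SYT3 ran from 0.307 CPM (SK-N-AS) to 28.8 CPM (NBL-S), median 3.99, and SYT13 from 0.110 CPM (SK-N-SH) to 12.1 CPM (CLB-GA), median 0.347. SYT15 differed little, from 5.98 CPM (GI-ME-N) to 16.0 CPM (IMR32), median 11.01, but Lan-6 (3.72) and GI-ME-N (3.77) were lowest with the trend removed, and the human genome holds a near-identical copy of this gene, so its counts are uncertain. SYT6 reached 45.3 CPM in SK-N-DZ, 39.8 in NGP and 23.1 in IMR5-75, and at most 0.299 CPM in the other 11 lines. SYT12 was at 20.3 CPM in NGP and at most 2.61 elsewhere. SYT10 passed 1 CPM only in NGP (1.86 CPM).

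On the vesicle membrane, SV2A was present in every line and synaptophysin and the synapsins were not. SV2A (chr1:149903318-149917882, minus strand), a transporter-like glycoprotein of synaptic and dense-core vesicles and the binding site of levetiracetam, had 312 CPM in IMR5-75, followed by Lan-6 at 215, IMR32 at 196, CLB-GA at 133, SK-N-AS at 132, GI-ME-N at 125, SK-N-BE(2)C at 124, NBL-S at 122, NGP at 121, SH-SY5Y at 112, SK-N-FI at 85.8, SK-N-DZ at 81.8, LS at 75.3 and SK-N-SH at 73.8. No line lacked it, and the SD of its log2 CPM over the 12 lines without the subclones was 0.50. SYP (chrX:49187804-49200259, minus strand), synaptophysin, an abundant vesicle protein and a diagnostic stain for neuroendocrine tumours, had 381 CPM in Lan-6, followed by SK-N-BE(2)C at 131, CLB-GA at 129, NBL-S at 97.2, IMR32 at 85.4, NGP at 76.1, IMR5-75 at 75.4, SK-N-DZ at 74.4, SH-SY5Y at 68.5, SK-N-FI at 54.0, SK-N-AS at 5.43, LS at 4.82, GI-ME-N at 1.83 and SK-N-SH at 1.40. Its value in Lan-6 was 221 CPM with the library trend removed, still the highest. SK-N-SH, GI-ME-N (1.33 CPM with its trend removed, then the lowest), LS and SK-N-AS formed a low set, at 1.40 to 5.43 CPM, and the next line had 54.0 CPM. SYN1 (chrX:47571898-47619943, minus strand), synapsin I, which clusters vesicles away from the membrane, had 87.3 CPM in Lan-6, followed by CLB-GA at 30.7, SK-N-FI at 26.7, SH-SY5Y at 23.8, IMR32 at 22.1, NGP at 21.8, SK-N-BE(2)C at 21.7, NBL-S at 17.7, SK-N-DZ at 16.9, IMR5-75 at 12.7, LS at 1.65, SK-N-AS at 0.755, SK-N-SH at 0.384 and GI-ME-N at 0.0310. The same 4 lines were lowest, GI-ME-N with 1 count, and Lan-6 was at 50.6 CPM with its trend removed. SYN2 (chr3:12004402-12191400, plus strand), synapsin II, had 293 CPM in SK-N-FI, followed by SK-N-DZ at 68.8, LS at 68.0, IMR32 at 66.0, Lan-6 at 56.9, CLB-GA at 49.5, NGP at 38.6, IMR5-75 at 38.2, SK-N-AS at 23.0, NBL-S at 19.9, SK-N-BE(2)C at 13.2, SH-SY5Y at 13.2, SK-N-SH at 0.494 and GI-ME-N at 0.248. Unlike SYN1, it was as high in LS as in IMR32 and was also found in SK-N-AS, and only SK-N-SH and GI-ME-N were under 1 CPM.

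SNAP91 (chr6:83552880-83709691, minus strand), also called AP180, which assembles clathrin coats for vesicle recycling, had 187 CPM in SH-SY5Y, followed by SK-N-BE(2)C at 126, NGP at 121, SK-N-DZ at 75.8, IMR32 at 75.6, IMR5-75 at 59.5, CLB-GA at 31.4, SK-N-FI at 31.3, NBL-S at 25.6, Lan-6 at 15.5, LS at 6.24, SK-N-SH at 0.631, SK-N-AS at 0.496 and GI-ME-N at 0.186. It was under 1 CPM in the 3 lines SK-N-SH, SK-N-AS and GI-ME-N. SYN3 ran from 0.0620 CPM (GI-ME-N) to 41.9 CPM (SK-N-DZ), median 1.29, SV2C from 0.236 CPM (SK-N-AS) to 218 CPM (CLB-GA), median 17.4, and SV2B from 0.217 CPM (GI-ME-N) to 4.95 CPM (Lan-6; 8.16 with the trend removed), median 0.742. SV2C was under 1 CPM in 6 of 14 lines, including SK-N-BE(2)C, Lan-6 and SK-N-DZ, so its gaps were not those of SYP. Per kilobase, SV2A was at least 60.4% of the SV2 family in every line, and SV2C made up 39.5% of it in CLB-GA and 38.2% in SK-N-FI. SYNPR, a relative of SYP, ran from 0.0274 CPM (SK-N-SH) to 4.84 CPM (NGP), median 0.662.

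**Figure D2:**
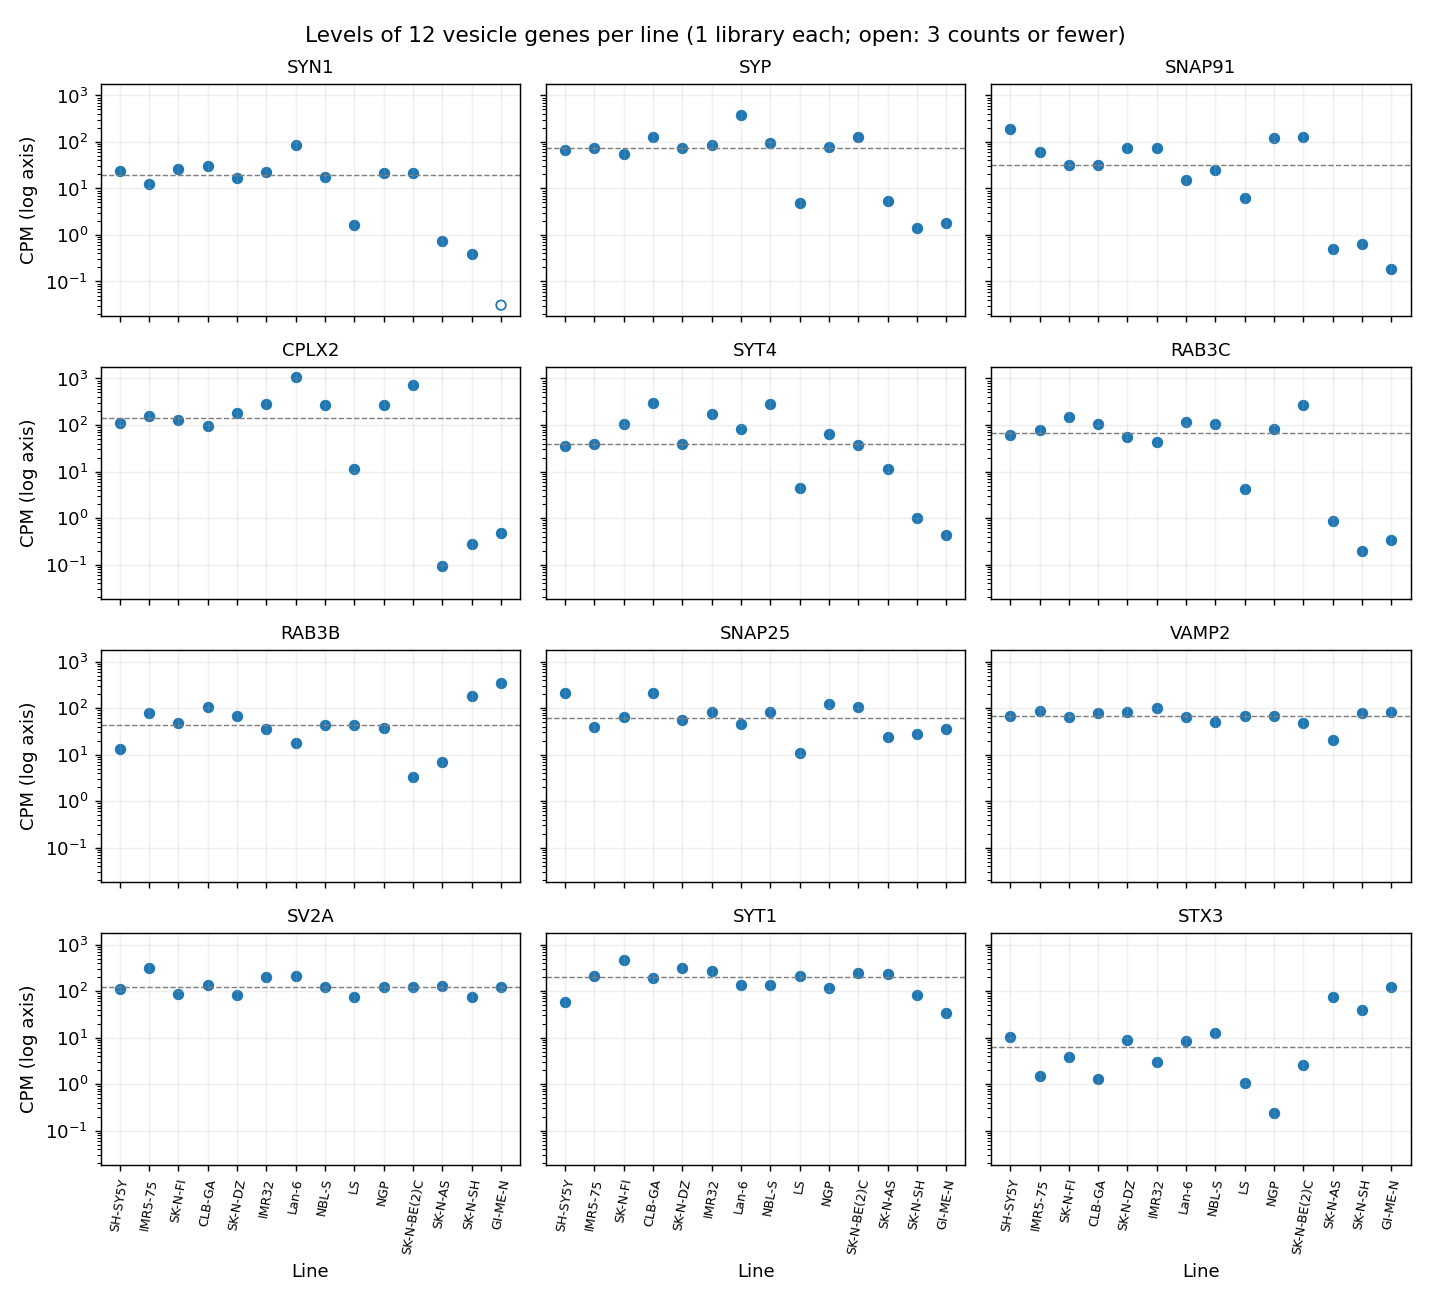
Points give CPM (vertical log axis) of 12 vesicle genes in each of the 14 lines (horizontal, the 2 subclones and then the others by adrenergic factor score), with 1 library per point, a dashed line at the median over lines and an open point at 3 counts or fewer. SYN1, SYP, SNAP91, CPLX2, SYT4 and RAB3C drop at the right, at SK-N-SH and GI-ME-N, VAMP2 and SV2A stay level, RAB3B is highest in both, and STX3 is highest in GI-ME-N.

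The RAB3 GTPases, which recruit vesicles to release sites, changed places between lines. RAB3A (chr19:18196784-18204074, minus strand), the main form at synapses, had 39.1 CPM in NGP, followed by Lan-6 at 33.1, SK-N-BE(2)C at 31.0, SH-SY5Y at 26.2, NBL-S at 20.1, IMR5-75 at 18.2, SK-N-DZ at 16.2, SK-N-FI at 15.2, CLB-GA at 13.5, IMR32 at 12.1, LS at 10.2, SK-N-AS at 6.92, SK-N-SH at 4.47 and GI-ME-N at 2.82. GI-ME-N (1.82 CPM with its trend removed), SK-N-SH and SK-N-AS were lowest. The value in Lan-6 was 15.6 CPM with its trend removed. RAB3B, the form best known from endocrine and epithelial cells, had 344 CPM in GI-ME-N, followed by SK-N-SH at 185, CLB-GA at 103, IMR5-75 at 78.5, SK-N-DZ at 66.1, SK-N-FI at 46.5, NBL-S at 43.1, LS at 42.4, NGP at 38.1, IMR32 at 34.9, Lan-6 at 18.1, SH-SY5Y at 13.4, SK-N-AS at 7.08 and SK-N-BE(2)C at 3.28. Here GI-ME-N and SK-N-SH were the top lines, and the GI-ME-N value was 412 CPM with the library trend removed. RAB3C ran from 0.192 CPM (SK-N-SH) to 263 CPM (SK-N-BE(2)C), median 68.3, with under 1 CPM in SK-N-AS (0.850) and GI-ME-N (0.341). With the trend removed Lan-6 was the highest line for RAB3C, at 245 CPM against 230 in SK-N-BE(2)C. RAB3D, known from exocrine glands, ran from 3.63 CPM (GI-ME-N) to 82.7 CPM (Lan-6), median 24.8. Per kilobase, RAB3B was 90.7% of the family in GI-ME-N and 55.8% in SK-N-SH, against 0.472% to 23.2% in the other lines. RAB3D was 64.6% in SK-N-AS, RAB3C 54.7% in SK-N-BE(2)C, and RAB3A 57.5% in NGP and 55.6% in SH-SY5Y. The summed RAB3 level per kilobase varied less, from 14.2 CPM per kilobase in LS to 55.8 in Lan-6, with 29.5 in GI-ME-N. The summed synapsins were lowest in GI-ME-N (0.122 CPM per kilobase) and SK-N-SH (0.345), and highest in SK-N-FI (119.9), where SYN2 made up 91.3%.

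**Figure D3:**
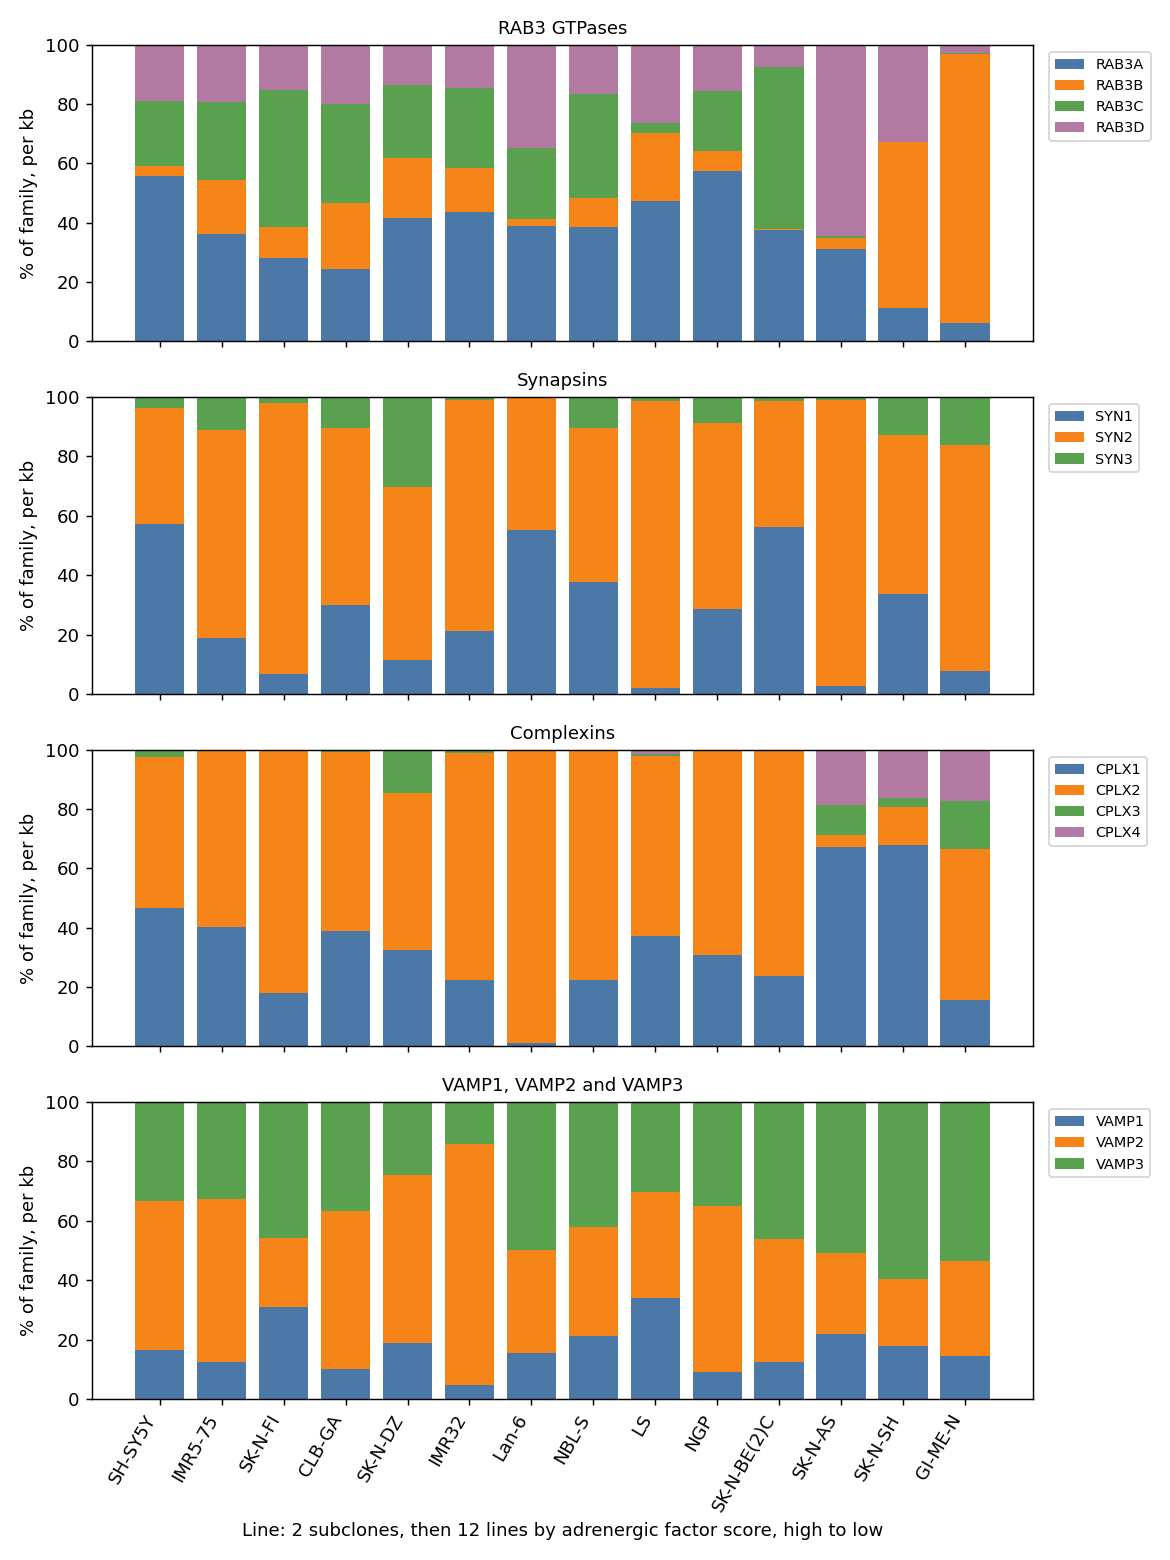
Bars give the share of each paralog in the summed CPM per kilobase of its family (vertical, percent) in each line (horizontal, the 2 subclones and then the others by adrenergic factor score). RAB3B fills 90.7% of the RAB3 bar in GI-ME-N and 55.8% in SK-N-SH, and the complexin bars of SK-N-AS, SK-N-SH and GI-ME-N divide a family that is almost absent.

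The other SNAREs, some of which also act at the plasma membrane, were the steadiest group, with STX3 the main exception. STX3 (chr11:59713456-59805882, plus strand), a plasma membrane syntaxin of epithelia and ribbon synapses, had 124 CPM in GI-ME-N, followed by SK-N-AS at 75.2, SK-N-SH at 38.5, NBL-S at 12.5, SH-SY5Y at 10.3, SK-N-DZ at 8.91, Lan-6 at 8.37, SK-N-FI at 3.88, IMR32 at 2.97, SK-N-BE(2)C at 2.60, IMR5-75 at 1.484, CLB-GA at 1.29, LS at 1.08 and NGP at 0.242. GI-ME-N, SK-N-AS and SK-N-SH stood above the other 11 lines, and GI-ME-N was at 103 CPM with its trend removed. STX4 (chr16:31032889-31042975, plus strand), the broadly used plasma membrane syntaxin, had 64.0 CPM in Lan-6, followed by SK-N-SH at 52.4, GI-ME-N at 39.0, SK-N-AS at 36.4, SK-N-FI at 26.8, SH-SY5Y at 20.6, IMR5-75 at 19.4, LS at 13.9, NBL-S at 13.3, IMR32 at 11.1, NGP at 9.23, SK-N-DZ at 8.91, CLB-GA at 7.18 and SK-N-BE(2)C at 6.85. Lan-6 and the same 3 lines were highest, and Lan-6 was at 31.8 CPM with its trend removed, which leaves SK-N-SH (52.3 CPM) highest. STX2 ran from 55.2 CPM (SH-SY5Y) to 133 CPM (SK-N-FI), median 74.2, and GI-ME-N was lowest with the trend removed (51.5 CPM).

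The recycling-endosome SNARE VAMP3 ran from 18.2 CPM (IMR32) to 212 CPM (SK-N-SH), median 54.5, and VAMP7, of lysosomes, from 21.9 CPM (Lan-6; 32.8 with the trend removed, against 24.1 in NBL-S, then the lowest) to 118 CPM (SK-N-SH), median 44.9. The syntaxins of the Golgi complex and the endoplasmic reticulum were found in every line. STX16 ran from 89.5 CPM (SH-SY5Y) to 255 CPM (CLB-GA), median 162, STX6 from 36.7 CPM (SK-N-DZ) to 80.5 CPM (SK-N-BE(2)C), median 53.9, STX5 from 9.40 CPM (SK-N-BE(2)C) to 91.5 CPM (GI-ME-N), median 22.2, and STX18 from 15.4 CPM (CLB-GA) to 77.7 CPM (GI-ME-N), median 29.1. STX10 ran from 27.6 CPM (IMR5-75) to 168 CPM (Lan-6), median 41.4, and its Lan-6 value was 68.6 CPM with the trend removed. The endosomal STX12 ran from 21.2 CPM (GI-ME-N) to 80.5 CPM (IMR5-75), median 41.4, STX7 from 3.83 CPM (NBL-S) to 52.3 CPM (SK-N-FI), median 19.0, and STX8 from 4.83 CPM (SK-N-BE(2)C) to 41.1 CPM (GI-ME-N), median 12.8. VAMP4 ran from 10.5 CPM (Lan-6; 21.5 with the trend removed, against 14.2 in SK-N-FI, then the lowest) to 47.5 CPM (LS), median 27.7, and the autophagosomal STX17 from 8.31 CPM (GI-ME-N) to 33.2 CPM (SK-N-AS), median 16.9. The rare ones were VAMP5, which ran from 0 CPM (IMR32) to 7.36 CPM (SK-N-AS), median 0.234, and VAMP8, which ran from 0.0414 CPM (NBL-S) to 1.475 CPM (SK-N-DZ), median 0.149.

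Whether vesicle genes follow the adrenergic state was tested across 12 lines, leaving out the subclones. A slope on the adrenergic factor score, the mean centred log2 CPM, in SDs over lines, of 7 factors that included PHOX2A, HAND2, GATA3, ISL1 and TBX2, was fitted to 18669 genes with edgeR's quasi-likelihood test and Benjamini-Hochberg adjustment. Of 62 vesicle genes, 59 passed the filter on low counts, and CPLX4, STX11 and SYT10 did not. At an adjusted p under 0.05, 6 of the 59 rose and 0 fell, against 0.986% of all genes tested that rose (184) and 2.69% that fell (503). The 6 were the synapsins SYN1 and SYN2 and the synaptotagmins SYT1, SYT4, SYT11 and SYT17. By DESeq2 24 rose and 1 fell, against 1677 and 989 of the 18669 genes. Without adjustment 20 vesicle genes had a p under 0.05 with a rising slope (33.9%, against 9.17% of all genes) and 5 with a falling slope (8.47%, against 9.59%). These p-values rest on how much the lines scatter, a scatter that also holds technical differences, since each line is 1 library.

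SYN2 had the smallest adjusted p of these, at 0.00158 for a slope of 2.93 ± 0.38 log2 per SD (SE), edgeR's test as above. SYN1 rose by 2.93 ± 0.70 (adjusted p = 0.0344), SYT4 by 2.89 ± 0.68 (0.034) and SYT17 by 2.34 ± 0.49 (0.0192). The slopes of the genes that no line lacked were shallower, at 0.85 ± 0.20 for SYT1 (0.0302, but 0.0724 with all 14 lines) and 0.71 ± 0.18 for SYT11 (0.0445). SYP had a slope of 2.24 ± 0.66 with an adjusted p of 0.0841, SYT7 2.15 ± 0.56 with 0.0516, and SYN3 2.60 ± 0.67 with 0.0502, which did not pass. CPLX2 had the steep but uncertain slope of 3.24 ± 1.55 (adjusted p = 0.281). In the other direction STX3 had -1.55 ± 0.49 (0.11) and RAB3B -0.76 ± 0.29 (0.183), neither of which passed.

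By role, the median slope was 2.24 log2 per SD for the 13 vesicle membrane and tethering genes, 1.97 for 15 synaptotagmins and 0.63 for 9 regulators. It was -8e-04 for the 5 neuronal SNAREs (0.09 with the length and GC trend removed) and -0.09 for 17 other SNAREs, against 0.05 for all genes. VAMP2 (-0.00 ± 0.15), STX1A (-0.11 ± 0.30), SV2A (0.13 ± 0.16) and SNAP25 (0.55 ± 0.30) did not pass the test. The 6 calls depend most on the low end of the scale. With both SK-N-SH and GI-ME-N left out, no gene of any kind was called by edgeR. These 2 lines had scores of -1.65 and -2.24 SD, against -0.18 to 0.94 elsewhere. Without either one of them SYN2 was the only vesicle gene called. SYN2 was also the only one with SH-SY5Y and IMR5-75 in place of SK-N-SH and IMR32, and the adjusted p of SYN1 was 0.0517 with the length and GC trend removed. Some calls were also lost without a single other line. SYT11 lost its call without SK-N-BE(2)C, CLB-GA, IMR32, NBL-S, SK-N-DZ or SK-N-FI (adjusted p of 0.0530 to 0.0911 in edgeR). For SYT1 this held without IMR32, SK-N-DZ or SK-N-FI, for SYT4 without CLB-GA, IMR32 or SK-N-AS, and for SYN1 without NBL-S.

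**Figure D4:**
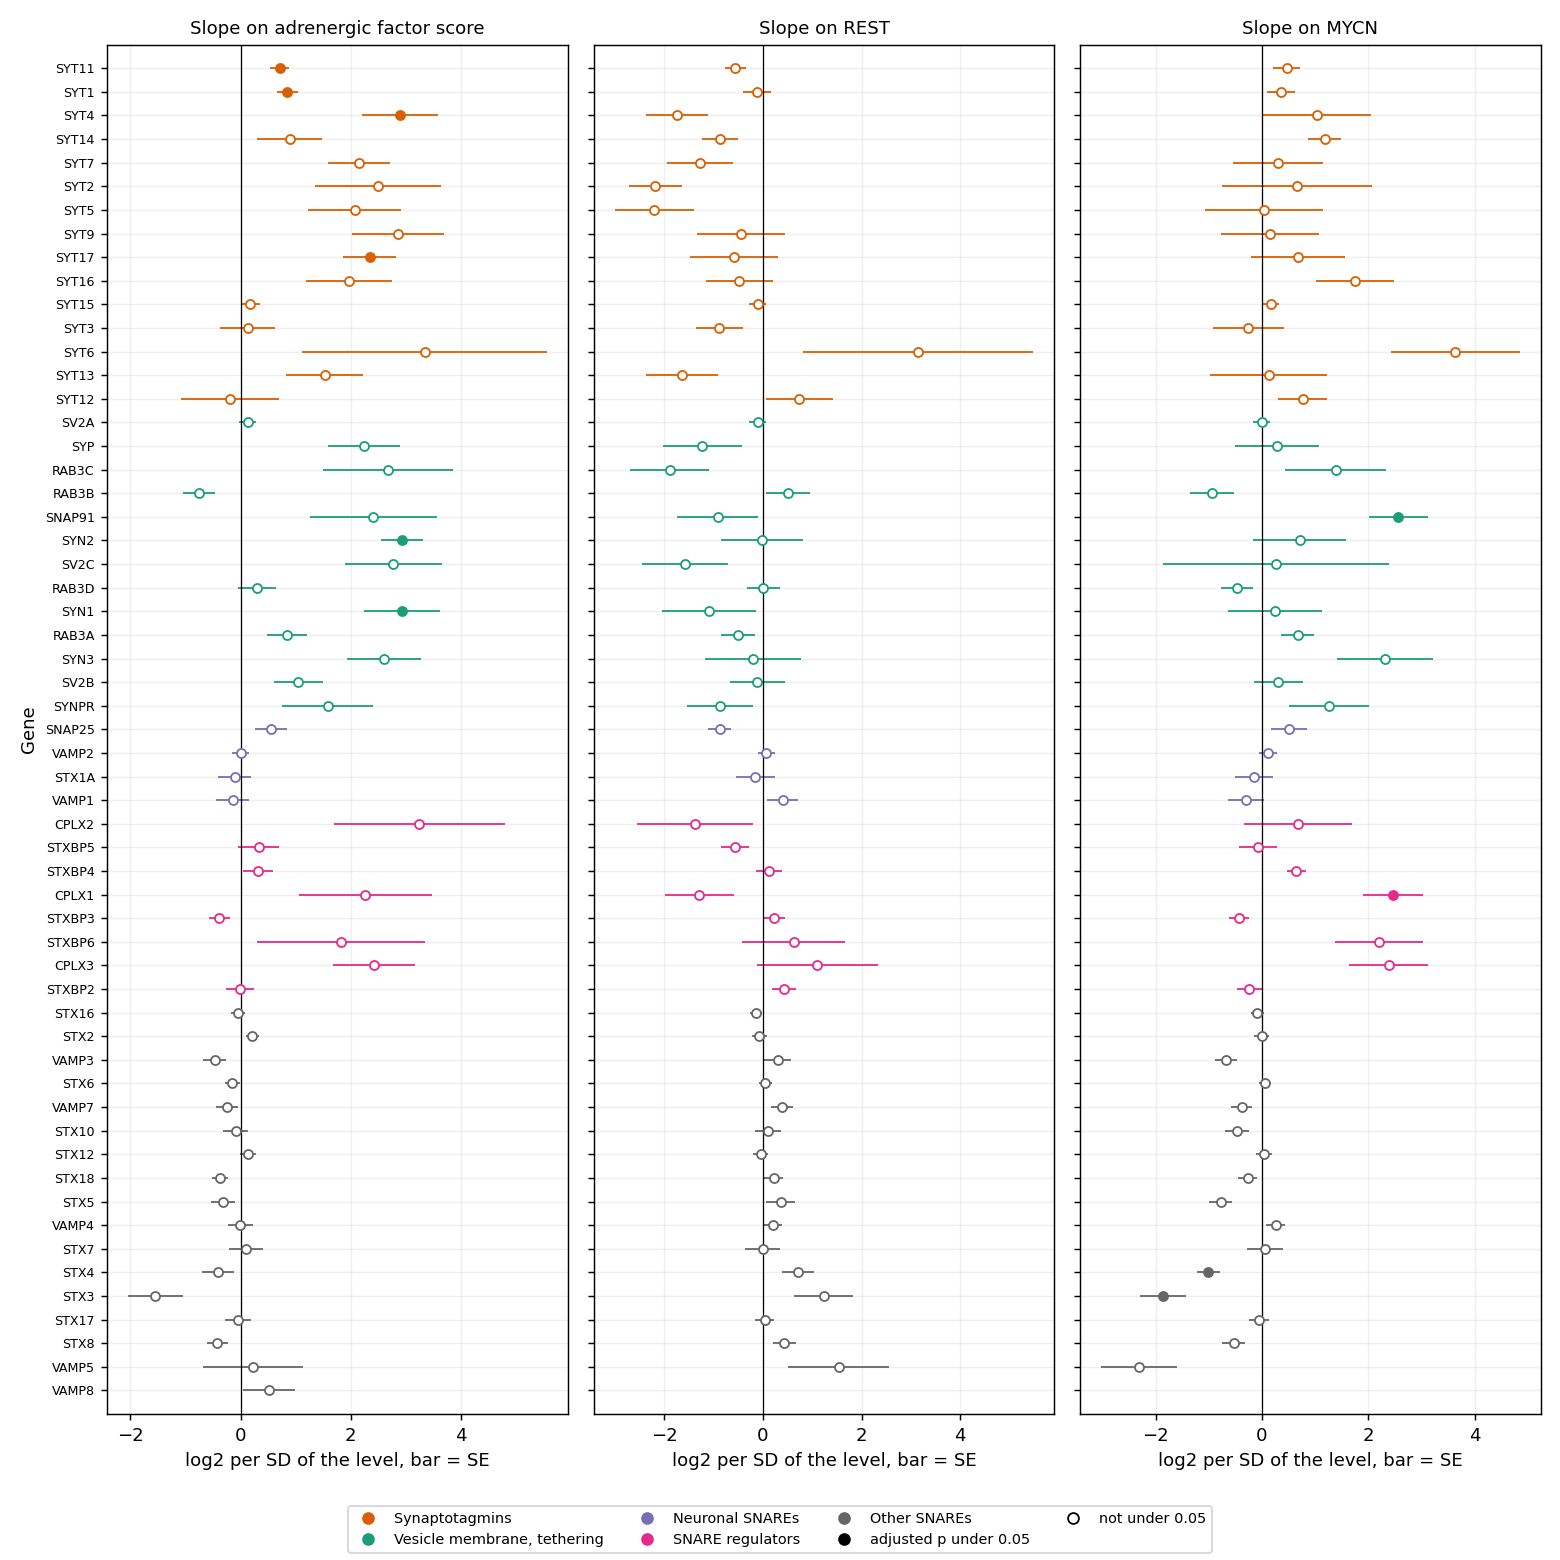
Points give the slope of the named vesicle genes tested (rows, by role) in log2 per SD of the level named above each panel over 12 lines, bars are the SE, and filled points have an adjusted p under 0.05 by edgeR's quasi-likelihood test. Filled points number 6 in the adrenergic panel, 0 in the REST panel and 4 in the MYCN panel, and most neuronal and other SNAREs lie near 0 in the adrenergic panel, STX3 (-1.55) being an exception.

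REST, a repressor that silences neuronal genes in other tissues and binds an element found near many vesicle genes, was at 0.539 CPM in NBL-S, 0.655 in CLB-GA and 0.706 in SK-N-BE(2)C, and at 8.65 to 80.6 CPM in the other 11 lines. A slope on REST over the 12 lines called 0 of 17781 genes by edgeR (0% rising and 0% falling) and so 0 of 58 vesicle genes, while DESeq2 called 549 genes, 5 of them vesicle genes with falling slopes (RAB3C, SNAP25, SYT2, SYT4 and SYT5). With no adjustment, 9 vesicle genes had a p under 0.05 and a falling slope (15.5%, against 3% of all genes) and 1 a rising one, STX4 (1.72%, against 5.41%). The slopes of SYT2 (-2.18 ± 0.54 log2 per SD), SYT4 (-1.74 ± 0.63) and SNAP25 (-0.88 ± 0.24) had adjusted p of 0.352, 0.483 and 0.369 in edgeR. As REST fell into a low and a higher set of lines, the fit was repeated without the 3 low lines. This choice was made after seeing the data. Again edgeR called no vesicle gene, but the values moved. An unadjusted p under 0.05, in either direction, was reached by 19 of 59 vesicle genes, against 10 of 58 in the first fit. The share of all genes with such a p was not counted for the repeat, so this rise cannot be set against other genes. In both fits the 4 lines with the most REST were LS, SK-N-AS, SK-N-SH and GI-ME-N. Over all lines these were also the 4 lowest for 13 of 51 vesicle genes averaging 5 CPM or more. The median slope of the vesicle genes was -0.53 log2 per SD, against -0.02 for all genes. In the first fit these medians were -0.11 and 0.04.

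MYCN, the transcription factor amplified in a share of neuroblastomas, was lowest in SK-N-SH (0.384 CPM) and highest in SK-N-BE(2)C (2245 CPM). On MYCN, 2 of 58 vesicle genes rose and 2 fell, against 1.1% of 17781 genes that rose (196) and 2.37% that fell (422). CPLX1 rose by 2.46 ± 0.56 log2 per SD (adjusted p = 0.0384, edgeR's quasi-likelihood test) and SNAP91 by 2.56 ± 0.56 (0.036). The plasma membrane syntaxins STX3 and STX4 had slopes of -1.86 ± 0.43 (0.0407) and -1.005 ± 0.21 (0.032). None of the 4 was called with both SK-N-SH and GI-ME-N left out, nor when any one of SK-N-BE(2)C, GI-ME-N, IMR32, NBL-S, NGP, SK-N-DZ or SK-N-SH was left out. With all 14 lines the slope of SNAP91 was 1.60 (adjusted p = 0.189), and with the subclones in place of their parents 1.16 (0.397). GI-ME-N and SK-N-SH were low both in MYCN and in the adrenergic score, and the relations to these levels cannot be told apart in them.

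Of 55 partner genes of release, such as active zone proteins and priming factors, 54 were tested on the adrenergic score, where 4 rose (7.41%, against 0.986% of all genes) and 0 fell. At an unadjusted p under 0.05 there were 14 rising slopes (25.9%, against 9.17%) and 4 falling ones (7.41%, against 9.59%). The 4 that rose were the active zone genes RIMS3 (2.27 ± 0.45, adjusted p = 0.0151, edgeR), RIMS4 (3.12 ± 0.65, 0.0195), RIMBP2 (3.11 ± 0.77, 0.0420) and BSN, bassoon (2.06 ± 0.51, 0.0431). None of these 4 was called without GI-ME-N (adjusted p of 0.132 to 0.359, with the slope of RIMS3 at 1.21), without SK-N-SH (0.106 to 0.203) or with the subclones in place of their parents (0.0806 to 0.170). RIMBP2 also lost its call without CLB-GA, IMR32, LS, NBL-S, NGP, SK-N-DZ or SK-N-FI (0.0536 to 0.0768). BSN lost it without CLB-GA, IMR32, NGP, SK-N-DZ or SK-N-FI (0.0524 to 0.0748). The median slope of the partners was 0.50. On REST, edgeR called 0 of 53 partners, with 3 rising slopes (5.66%, against 5.41% of all genes) and 5 falling ones (9.43%, against 3%) at an unadjusted p under 0.05. On MYCN it also called 0 of 53, with 14 rising (26.4%, against 10.7%) and 8 falling (15.1%, against 14.3%).

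The subclones were set beside their parental lines, 1 library each and with no test. Between SH-SY5Y and SK-N-SH, 57 of the 62 genes were above 3 counts in both, and 20 of these were at least 3-fold higher in SH-SY5Y (35.1%, against 10.3% of 16761 genes). Lower by as much were 7 (12.3%, against 10.9% of genes). Higher were 9 of 14 synaptotagmins and 8 of 12 vesicle membrane and tethering genes, but 0 of 17 other SNAREs. CPLX2 was at 113 CPM in SH-SY5Y and 0.275 in SK-N-SH, a ratio of 411. RAB3C had 60.1 CPM in SH-SY5Y and 0.192 in SK-N-SH, and SNAP91 had 187 and 0.631. SYP was at 68.5 CPM in SH-SY5Y against 1.40 in SK-N-SH (49.0-fold), and SYN1 at 23.8 against 0.384 (61.8-fold). RAB3B was lower, with 13.4 CPM in SH-SY5Y and 185 in SK-N-SH, as was VAMP3 with 47.0 and 212. SYT1 differed little and was the lower in SH-SY5Y (58.1 CPM, against 83.0 in SK-N-SH), and so did VAMP2 (68.7 against 77.9). The mesenchymal markers summed to 551 CPM in SH-SY5Y, of which TWIST1 gave 342, and to 13030 in SK-N-SH. Their part in these ratios was not tested.

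Between IMR5-75 and IMR32 fewer vesicle genes differed, with 6 of 57 at least 3-fold higher in IMR5-75 (10.5%, against 9.05% of 17334 genes) and 5 lower (8.77%, against 6.87%). These shares are near those of all genes. The widest gaps were in synaptotagmins. SYT6 was at 23.1 CPM in IMR5-75 and 0.299 in IMR32 (77.0-fold), SYT2 at 26.2 and 0.873, and SYT9 at 0.0886 and 44.4, where the IMR5-75 value is 4 counts. SYT4 was at 38.9 CPM in IMR5-75 and 174 in IMR32.

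**Figure D5:**
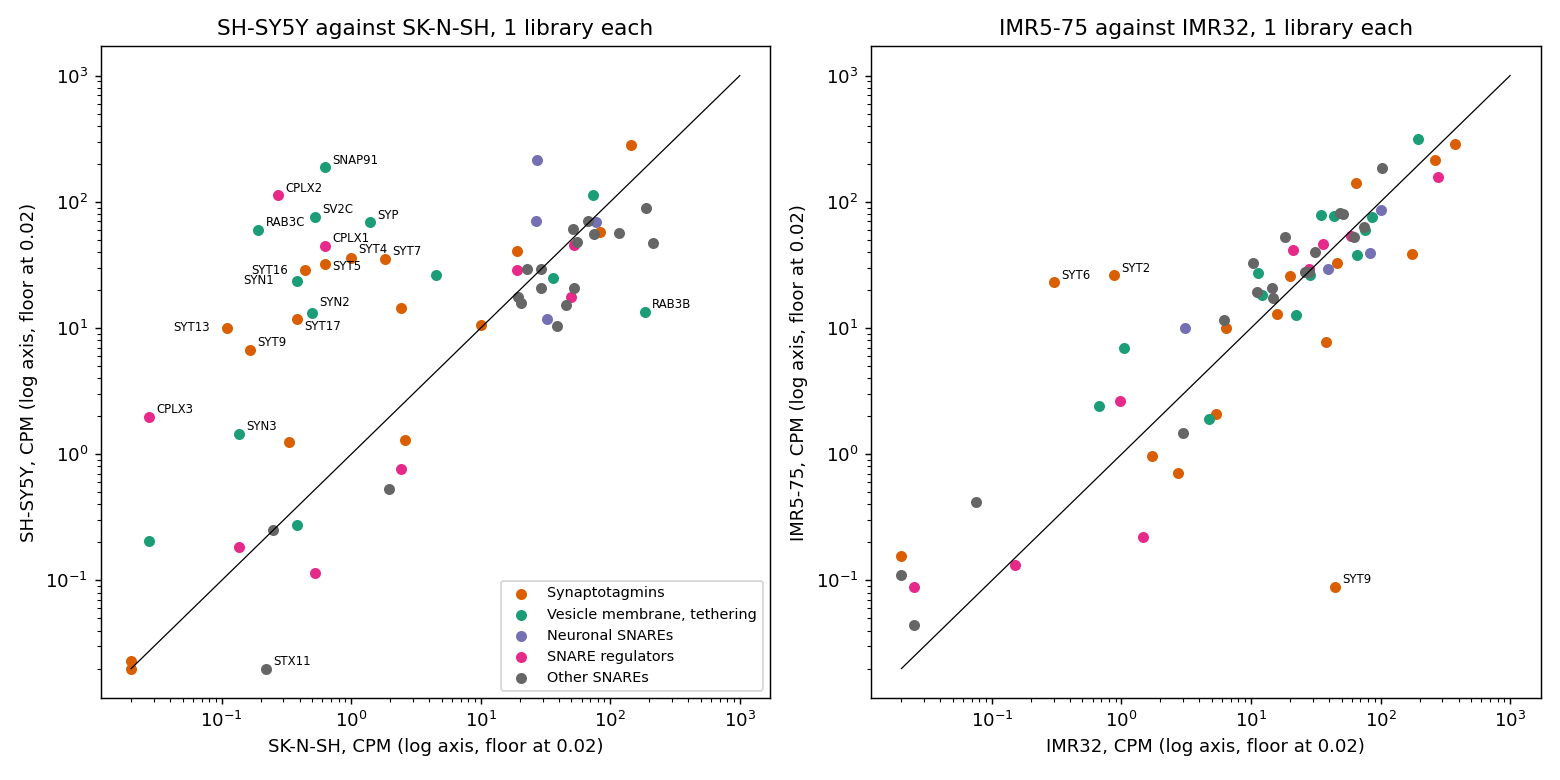
Each point is a vesicle gene, with CPM in the subclone (vertical log axis) against CPM in its parental line (horizontal log axis), 1 library each, coloured by role, with equal levels on the diagonal. Synaptotagmins, complexins and vesicle membrane genes rise above the diagonal for SH-SY5Y, with RAB3B far below it, while SYT6, SYT2 and SYT9 stand off it for IMR5-75.

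In some lines a vesicle gene stood well above every other line, a ratio that was not counted for all genes. Such genes were not confined to that line. SYN2 reached 1 CPM in 12 of 14 lines, SYN3 in 9, SYT12 in 7 and CPLX3 in 3. By ratio to the next line, CPLX3 in SK-N-DZ was 10.1 times the level of SH-SY5Y, SYT12 in NGP 7.77 times that of SK-N-SH, SYN2 in SK-N-FI 4.25 times that of SK-N-DZ, and SYN3 in SK-N-DZ 4.09 times that of CLB-GA. STXBP6 in NGP was 2.88 times the next line. SYP and SYN1 in Lan-6 were 2.91 and 2.85 times the next line, but 1.52 and 1.64 times with the length and GC trend removed. In the other lines no vesicle gene at 5 CPM or more exceeded the next line by more than 1.89 times, the ratio of CPLX1 in SK-N-BE(2)C to NGP.

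Promoters were searched for the binding element of REST, since several vesicle genes are known targets. Windows of 250 bases before to 50 after a transcription start, from RefSeq (GRCh38.p14), were found for 51 of the 62 genes, 76 windows in all. CPLX1, SNAP25, STX17, STXBP4, SYN3, SYT7, SYT12, SYT13 and SYT17 were among those without one. The motif searched on both strands was TTCAGCACC, 2 bases of any kind, GGACAG, 1 base of any kind and GCC. SYN1 held an exact match, shared by 3 of 35116 windows (0.00854%), and it was the only vesicle gene with at most 3 mismatches (1.32% of windows, against 0.137% of all). Among the partners, RPH3A, rabphilin, an effector of RAB3, had a match with 2 mismatches. The 2 sites are shown in the direction of the motif, with bases that equal it in capitals, to let the mismatches be seen:
SYN1 site, chrX:47620070-47620090: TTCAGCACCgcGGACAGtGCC
RPH3A site, chr12:112791548-112791568: gTCAGCACCacGGACAGcGCt

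The SYN1 match starts at position -233 from the start and is followed by a cyclic AMP response element (TGACGTCA, equal on both strands) at -159. The 250 bases before the start are given on the minus strand of the genome, the strand of the gene, with both matches in capitals, because they carry the only exact match among the windows of these genes:
SYN1, chrX:47619858-47620107: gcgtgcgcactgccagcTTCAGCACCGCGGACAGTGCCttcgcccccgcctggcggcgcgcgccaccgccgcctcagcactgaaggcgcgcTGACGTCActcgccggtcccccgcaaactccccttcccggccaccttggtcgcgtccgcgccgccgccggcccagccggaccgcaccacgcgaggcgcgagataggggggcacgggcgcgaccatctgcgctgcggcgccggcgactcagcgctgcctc
SYN1 had a slope on REST of -1.10 ± 0.95 log2 per SD (adjusted p = 0.836, edgeR), and it was at 17.7, 30.7 and 21.7 CPM in the lines with REST under 1 CPM. Of the 12 lines of the fit, the 4 with the most REST were LS, SK-N-AS, SK-N-SH and GI-ME-N. They were the 4 lowest in SYN1, at 1.65, 0.755, 0.384 and 0.0310 CPM. The 5 lines of the fit with REST at 8.65 to 20.0 CPM had SYN1 at 16.9 to 87.3 CPM. The subclone IMR5-75, outside the fit, had REST at 59.4 CPM but SYN1 at 12.7 CPM. This grouping by REST was not tested. LS, SK-N-AS, SK-N-SH and GI-ME-N were also the 4 lowest lines for 13 of 51 vesicle genes averaging 5 CPM or more. The cyclic AMP element was present in 3 windows of these genes (3.95%, SYN1, STX12 and STXBP3), against 1.85% of all windows. The E-box CACGTG, a site that MYC proteins can bind and equal on both strands, was present in 9 windows (11.8%) of 8 genes, against 7.26% of all. These were CPLX3, STX2, STX4, STX6, STX18, STXBP2, SYT6 and SYT14, of which STX4 had passed the test on MYCN, with a falling slope.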

How the data were processed

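Per the labels' protocols, TRIzol-extracted total RNA of each of 14 lines was made into 1 TruSeq library. Named in the submitters' processing notes are the build GRCh38 and the tools kallisto (0.44.0) and DESeq2 (1.48.2), with no step assigned to any. The deposited table of expected counts holds whole numbers for 20049 symbols, and reading it as estimated counts without scaling rests on its values. The deposited log2 table, called variance-stabilised in its name, served as an alternative scale. Not given in the sources used here are the strand setting and how reads shared by similar genes were split. Of 91 pairs of libraries none held the same counts.

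With edgeR 4.0.16 in R 4.3.3, TMM factors scaled the libraries for CPM and for log2 CPM, which took a prior count of 2. Slopes on the 3 levels were fitted over 12 lines with edgeR's quasi-likelihood test after filterByExpr, with genes that make up a level left out and p-values adjusted by Benjamini-Hochberg over all genes tested (threshold 0.05). Lengths and GC content came from the longest principal transcript of each gene in GENCODE 29 (99% of symbols matched), and the trend was fitted with mgcv 1.9.3. Positions are from GENCODE 29 on GRCh38. Alternatives were DESeq2's size factors, the DESeq2 1.42.0 test, limma 3.58.1 on the deposited log2 values, no filter, removal of the length and GC trend, other choices of lines and leaving out each line.

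The genes, lists, scans and markers were chosen with earlier results of these data known. By rule, values in every line were given for SYT1, SYT4, SNAP25, STX1A, VAMP2, SYN1, SYP, SV2A, RAB3A and each gene called in a scan, ranges for the others, up to 2 genes per line by ratio to the next line, and called partners. Some genes of the set and of the adrenergic score entered the counts but are not reported here by name. RAB3B was given in every line after its values were seen. Chromaffin cell markers summed to 75.3 CPM (LS) to 23250 CPM (Lan-6), and central neuron markers to at most 36.2 CPM.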

Additional observations from a re-analysis of the deposited data

How the results depend on the processing

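No called slope of a vesicle gene or partner changed sign in any setting tried. Among uncalled slopes on the adrenergic score, VAMP2 (-8e-04) was positive with limma (0.0569), with the length and GC trend removed (0.11), with all 14 lines (0.0096), with subclones in place of parents (0.0139), without Lan-6 and GI-ME-N (0.0755) and on leaving out both SK-N-SH and GI-ME-N (0.36), and lay between -0.048 and 0.0805 on leaving out each line. STX1A was positive without Lan-6 and GI-ME-N (0.076) and lay between -0.26 and 0.23 on leaving out each line. On leaving out both SK-N-SH and GI-ME-N, STX1A had 0.29, RAB3B 0.79 and CPLX2 -0.048. SYT7 passed with DESeq2's size factors (adjusted p = 0.0489) and SYN3 with the trend removed (0.0326). The counts moved with the choice of tool and lines, and the cause was not tested. On the adrenergic score, where edgeR called 184 genes rising and 503 falling, among them 6 and 0 vesicle genes, the DESeq2 test called 1677 and 989, among them 24 and 1. With subclones in place of parents the counts were 70 and 277, with 1 vesicle gene rising. Leaving out both SK-N-SH and GI-ME-N gave 0 for all. Without Lan-6 and GI-ME-N they were 31 and 232, with 1 vesicle gene rising. Removing the length and GC trend gave 290 rising genes, limma gave 311 falling, and no filter gave 1 falling vesicle gene, STX11. Leaving out each line gave 27 to 350 rising and 200 to 952 falling genes, with 1 to 8 and 0 to 1 vesicle genes. On REST, where edgeR called none, the DESeq2 test called 363 rising and 186 falling genes, among them 5 falling vesicle genes. Without SK-N-BE(2)C, CLB-GA and NBL-S 1 gene was called, falling. Leaving out each line gave 0 throughout. On MYCN, with 196 rising and 422 falling genes and 2 vesicle genes each way, the DESeq2 test called 1410 and 1773, among them 9 and 6 vesicle genes. All 14 lines gave 402 and 868, with 4 vesicle genes falling, and limma gave 190 falling genes with 1 vesicle gene. With subclones in place of parents, or leaving out both SK-N-SH and GI-ME-N, all were 0. Without Lan-6 and GI-ME-N they were 30 and 139, with 0 vesicle genes. Leaving out each line gave 0 to 497 rising and 0 to 1048 falling genes, with 0 to 3 and 0 to 4 vesicle genes.

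SYN2 kept its call on the adrenergic score in 20 of 21 settings. It lost the call on leaving out both SK-N-SH and GI-ME-N, the 2 lines with the lowest scores. There its slope was 0.9965, against 2.93 in the main fit (adjusted p = 0.596, edgeR's quasi-likelihood test). No paired analysis was possible because the labels give 1 group and no replicate numbers. With 1 library per line, depth limits only genes near 3 counts, and a true difference between lines and a difference between libraries cannot be told apart.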
